A study of Mus musculus with 8 samples.

Results

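Of the 57180 genes in the deposited table, 6 that govern where a T cell sits and how long it stays in a lymph node are described here: Klf2, S1pr1, S1pr4, Cd69, Ccr7 and Gpr183. They were taken from the table by symbol, and all 6 passed the filter on low counts that left 14755 genes for testing. The cells were regulatory T (Treg) cells of the mouse, a suppressive class of CD4 T cell, sorted by FACS from different mice. The 8 RNA-sequencing libraries are 3 labelled chimera KO and 5 labelled chimera WT. The labels name neither the deleted gene nor the strain, age, tissue or host of the chimeras, so the groups are called KO-labelled and WT-labelled. Which library came from which mouse is not stated either, and p-values therefore measure the spread between these libraries only.

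T cells enter lymph nodes through high endothelial venules and follow the chemokines CCL19 and CCL21 with the receptor CCR7. They leave along a gradient of the lipid sphingosine 1-phosphate (S1P), which is low inside the node and high in lymph and blood, with the receptor S1PR1. The transcription factor KLF2 keeps S1pr1 transcribed in resting T cells, and CD69, which appears early after activation, binds S1PR1 and takes it off the cell surface. GPR183 (EBI2) follows oxysterols and places cells at the edge of the follicle. In Treg cells, CCR7 and S1PR1 mark the resting subset that circulates through lymphoid organs.

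Totals were 4.31 to 8.48 M (mega) counts in KO-labelled and 10.5 to 18.0 M in WT-labelled libraries. Values for single genes are CPM (counts scaled to a common library size) after TMM scaling, called normalised CPM, unless another scale is named. WT-labelled replicates 4 and 5 stood apart. They had 8201 and 9422 genes with at least 10 counts, against 12398 to 14245 in the 3 KO-labelled libraries and 12660 to 14009 in WT-labelled replicates 1 to 3. The summed level of 7 B cell markers was 80.2 to 194 in KO-labelled and 199 to 3140 in WT-labelled libraries. That of 7 NK cell markers was 0.15 to 56.9 in KO-labelled and 60.1 to 4040 in WT-labelled libraries. Both sums were highest in WT-labelled replicate 4, as were those of T cell, CD8 T cell and myeloid markers (15900, 236 and 544). These sums rested on part of their markers. The CD8 T cell sum there was Cd8b1 alone, with Cd8a at 0 counts. Fcer1g made up 480 of the myeloid sum, with Lyz2, Csf1r and Adgre1 at 0. The T cell marker Cd4, at 86.3 in WT-labelled replicate 4, was lower there than in any other library. In that library 3 of the 7 NK cell markers had at least 1 count. Gzma, a granule protease of killer cells, had 11009 counts there and 0 in all other libraries. Ncr1, which defines NK cells, had 0 in all 8. The 5 erythroid markers summed to 9100 in WT-labelled replicate 5 and to at most 22.2 elsewhere. The 5 Treg markers each had at least 1 count in every library, and their sum was 635 to 2560 in KO-labelled and 2190 to 6010 in WT-labelled libraries. Its make-up varied: Ikzf2 was 4630 of the 6010 in WT-labelled replicate 2 and 81.1 of 2850 in WT-labelled replicate 4. Foxp3, the lineage factor gene, had 26.6, 2.69 and 24.2 in KO-labelled replicates 1 to 3, against 11.9, 36.6, 41.9, 3.09 and 1.26 in WT-labelled replicates 1 to 5 (log2 change −0.09). All 5 had negative log2 changes. Ctla4 was at −1.84 (edgeR adjusted p = 0.325, DESeq2 0.0107). Its groups were separate with TMM scaling and overlapped when libraries were scaled by total counts alone. Tnfrsf18 was at −3.57 (edgeR adjusted p = 0.325, DESeq2 0.0063), and its groups overlapped with either scaling. The part of these differences in the values of the 6 genes was not tested. In these bulk libraries fewer cells of a type and less RNA per cell cannot be told apart.

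Of the 6 genes, 5 had negative log2 changes (KO-labelled minus WT-labelled), largest in size for Ccr7, Cd69 and Gpr183, and S1pr4 had one near 0. By edgeR's quasi-likelihood test with Benjamini-Hochberg adjustment over all genes, 0 of the 6 passed an adjusted p of 0.05, as did 0.0% of all genes in either direction. At an unadjusted p under 0.05, 3 of the 6 were lower, against a background of 6.43% of all genes tested. DESeq2 called 5 of the 6 lower, against 10.0% of all genes tested. The groups did not overlap, with every KO-labelled library below every WT-labelled one, for 3 of the 6 genes (Cd69, Klf2 and Gpr183), against 4.49% of all genes tested. When libraries were scaled by their total counts alone, this held for 1 of the 6, Cd69, against 1.66%. The median log2 change of the 6 genes was −1.92. It was −0.42 over all genes tested and −0.86 over protein-coding genes tested, of which 66.5% had negative values. The median over all genes was 0.21 with total counts, a shift of 0.63 from TMM scaling. The change of each of the 6 genes is therefore also given relative to the median of its own setting. Without WT-labelled replicates 4 and 5 the median was −1.13 over the 6 genes and −0.15 over all genes tested, and 3 of the 6 were lower at an unadjusted p under 0.05 in edgeR, against 6.36% of all genes.

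**Figure D1:**
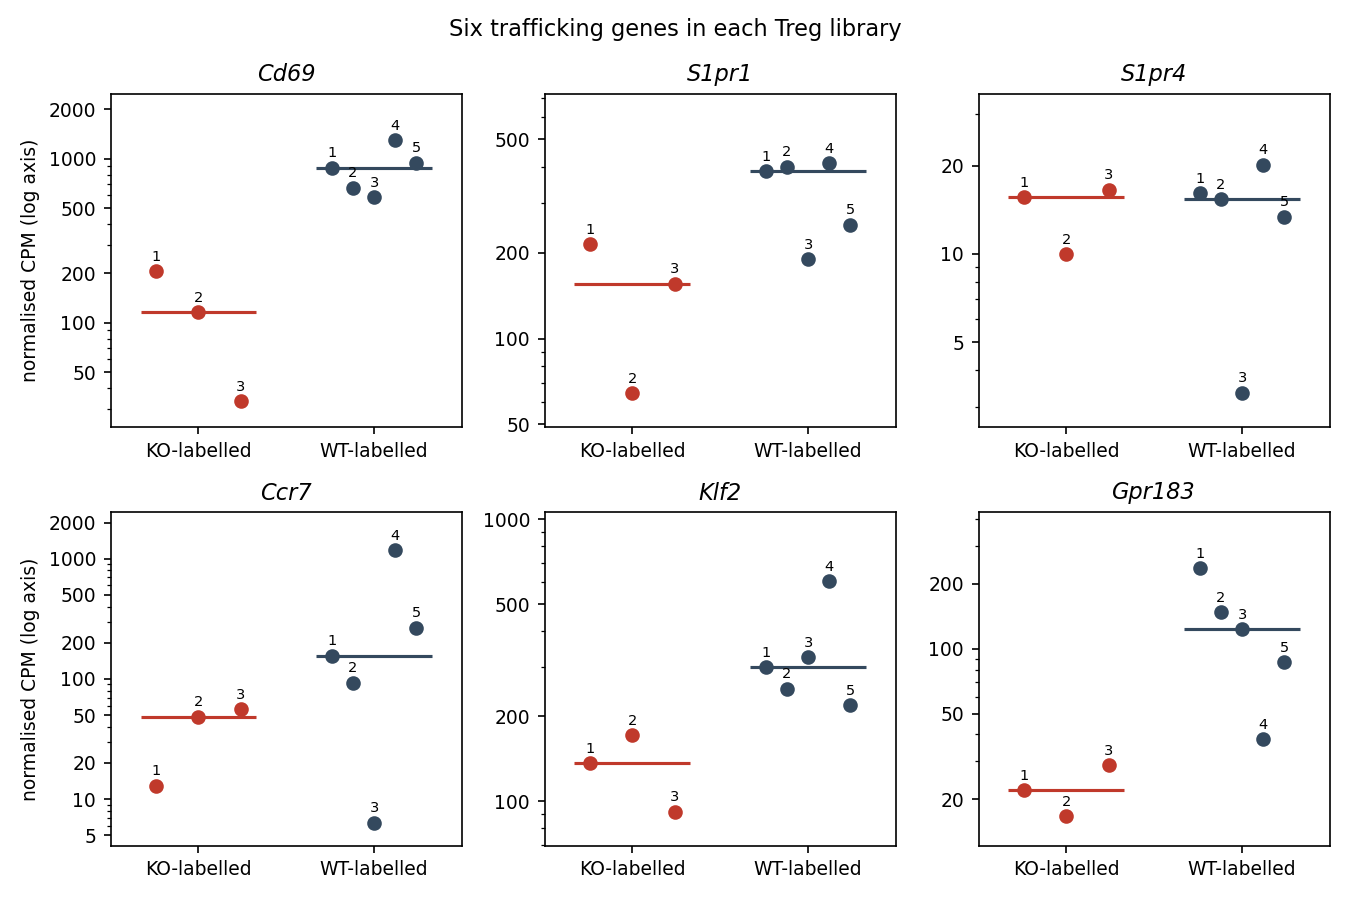
Normalised CPM (log axis) of Cd69, S1pr1, S1pr4, Ccr7, Klf2 and Gpr183 in each library, KO-labelled (red, n = 3) left of WT-labelled (dark, n = 5); digits are replicate numbers and bars are group medians. The groups are separate for Cd69, Klf2 and Gpr183 and overlap for S1pr1, S1pr4 and Ccr7, and Ccr7 in WT-labelled replicates spans 6.39 to 1180.

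Klf2 (ENSMUSG00000055148) encodes the zinc finger factor that maintains quiescence and trafficking receptors in T cells, and lies on the plus strand of chromosome 8, positions 72319033 to 72321656 of the GRCm38 (mm10) build. Its normalised CPM was 136, 171 and 91.6 in KO-labelled replicates 1 to 3, against 299, 250, 324, 603 and 219 in WT-labelled replicates 1 to 5. Every KO-labelled library was below every WT-labelled one, and WT-labelled replicate 4 was the highest of the 8. Klf2 differed by −1.35 on the log2 scale (SE 0.59, 95% interval −2.66 to −0.04, edgeR adjusted p = 0.339). DESeq2 gave −1.82 with an adjusted p of 0.0312. The change was −0.54 with total counts alone, where KO-labelled replicate 2 (250 CPM of the total) lay above WT-labelled replicates 4 and 5 (239 and 149). Relative to the median of all genes it was −0.93 with TMM scaling and −0.75 with total counts. Without WT-labelled replicates 4 and 5 it was −1.10.

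In endothelial cells and lymphocytes the kinase pair MEK5 and ERK5 acts on MEF2 factors to drive Klf2, and the bases just upstream of the gene are shown because regulators of that route are among the genes described further on. A script searched both strands of the 250 bases before the RefSeq start for the MEF2 motif (CTA, any 4 bases, TAG), which reads the same on both strands, and found 1 match at positions −118 to −109. Of 32851 promoter windows of the same length, 3.2% hold it. The stretch below (RefSeq, GRCm38.p6, plus strand, chr8:72318812-72319032) holds the first 221 of these 250 bases. It ends where the GENCODE gene begins, short of the RefSeq start from which positions are counted. Capitals mark the MEF2 match.
Klf2 upstream: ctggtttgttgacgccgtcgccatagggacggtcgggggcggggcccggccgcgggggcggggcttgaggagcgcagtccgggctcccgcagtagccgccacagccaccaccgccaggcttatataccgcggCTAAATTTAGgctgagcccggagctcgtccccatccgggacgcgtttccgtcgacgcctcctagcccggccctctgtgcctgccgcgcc
The same window of 250 bases held 4 matches, in overlapping pairs, to the KLF and SP factor motif CCNCNCCC (45.9% of windows). It held 1 to the CACCC box (52.0% of windows), at −19 to −15, past the end of the printed stretch and inside the GENCODE gene. A match describes letters and not binding.

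S1pr1 (ENSMUSG00000045092, chromosome 3, 115710433 to 115715072, minus strand) encodes the S1P receptor that T cells need to leave lymph nodes and thymus. It had 214, 64.4 and 156 normalised CPM in KO-labelled replicates 1 to 3, against 387, 400, 190, 412 and 251 in WT-labelled replicates 1 to 5. The groups overlapped by 1 library on each side, since KO-labelled replicate 1 lay above WT-labelled replicate 3. The log2 change was −1.18 (SE 0.61, interval −2.55 to 0.19, edgeR adjusted p = 0.376), while DESeq2 gave −1.59 with an adjusted p of 0.0409. With total counts alone it was −0.53, and relative to the median of all genes it was −0.77 with TMM scaling and −0.74 with total counts. Without WT-labelled replicates 4 and 5 it was −1.17. Of all genes tested, 35.3% had a more negative log2 change than S1pr1, and 32.0% a more negative one than Klf2. On the log2 scale S1pr1 and Klf2 were the closest pair among the 6 genes, with a root mean square difference of 0.75 over the 8 libraries after each gene's mean was subtracted.

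S1pr4 (ENSMUSG00000044199, chromosome 10, 81497747 to 81500132, minus strand) encodes a second S1P receptor, mostly of haematopoietic cells, that shapes T cell migration without driving egress from nodes. Its normalised CPM was 15.6, 10.0 and 16.6 in KO-labelled replicates 1 to 3, against 16.1, 15.4, 3.36, 20.2 and 13.4 in WT-labelled replicates 1 to 5. All 3 KO-labelled libraries lay within the range of the WT-labelled ones. The log2 change was 0.04 with an interval of −2.14 to 2.21 (edgeR adjusted p = 0.985). Its sign turned under 7 of the 19 alternatives. Relative to the median of all genes it was 0.45 with TMM scaling and 0.57 with total counts. On that scale it ran from −0.0 to 0.99 over the 19 alternatives. Since its counts were 67 to 178 in KO-labelled and 40 to 194 in WT-labelled libraries, it was also the least deeply measured of the 6. The upstream stretch is shown for comparison with that of Klf2 (RefSeq, GRCm38.p6, minus strand, chr10:81500138-81500387), and capitals mark its only match to the CACCC box, read on the opposite strand, at positions −107 to −103.
S1pr4 upstream: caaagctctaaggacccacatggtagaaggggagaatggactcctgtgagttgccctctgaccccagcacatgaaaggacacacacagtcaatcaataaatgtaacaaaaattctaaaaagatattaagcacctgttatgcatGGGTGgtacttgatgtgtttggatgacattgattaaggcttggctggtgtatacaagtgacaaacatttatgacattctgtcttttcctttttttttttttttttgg
It held no match to the MEF2 or to the KLF and SP motif, and the window of Gpr183 held none of the 3 motifs. Windows matched 3 of the 6 genes by symbol, leaving S1pr1, Ccr7 and Cd69.

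Cd69 (ENSMUSG00000030156, chromosome 6, 129267325 to 129275436, minus strand) encodes the C-type lectin-like protein that holds activated T cells in tissue by removing S1PR1 from the surface. It had 207, 116 and 33.3 normalised CPM in KO-labelled replicates 1 to 3, against 883, 665, 583, 1300 and 943 in WT-labelled replicates 1 to 5. The highest KO-labelled library was well below the lowest WT-labelled one, and the KO-labelled libraries spread 6.21-fold among themselves, against 2.23-fold in the WT-labelled ones. Scaled by total counts alone the groups were likewise separate, at 43.2 to 279 CPM in KO-labelled and 515 to 1000 CPM in WT-labelled libraries. The log2 change was −2.88 (SE 0.70, interval −4.45 to −1.32). Relative to the median of all genes, it was −2.47 with TMM scaling, −2.30 with total counts and −2.42 without WT-labelled replicates 4 and 5. Over the 19 alternatives it ran from −3.09 to −2.01 on that scale. The adjusted p of edgeR was 0.325 (unadjusted 0.0022), and DESeq2 gave 0.000167. Of all genes tested, 9.04% had a more negative log2 change. Per 1000 counts of the T cell receptor genes Cd3d, Cd3e and Cd3g, a scale added after seeing the data, Cd69 had 189, 173 and 50 in KO-labelled replicates 1 to 3, against 671, 357, 506, 113 and 224 in WT-labelled replicates 1 to 5. The difference of mean log2 values was −1.41 on that scale, where WT-labelled replicate 4 lay below KO-labelled replicates 1 and 2 and the groups overlapped. The same scale turned the sign of Klf2 and S1pr1, which differed by 0.46 and 0.48 (KO-labelled minus WT-labelled, mean of log2 values). It also put S1pr4 higher in every KO-labelled library, with a difference of 1.99. The share of all genes that separate on that scale was not computed. The summed Cd3 level was itself 667 to 1090 normalised CPM in KO-labelled and 1150 to 11500 in WT-labelled libraries, and its part in these values was not tested.

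Since CD69 and S1PR1 act against each other, their transcripts were also set against each other within each library, which needs no scaling between libraries. The ratio of Cd69 to S1pr1 counts per kilobase was 1.75, 3.25 and 0.388 in KO-labelled replicates 1 to 3, against 4.12, 3.0, 5.53, 5.7 and 6.78 in WT-labelled replicates 1 to 5. KO-labelled replicate 3 was the only library in which S1pr1 exceeded Cd69, and KO-labelled replicate 2 lay above WT-labelled replicate 2. The log2 ratio averaged 0.38 ± 1.58 in KO-labelled and 2.27 ± 0.46 in WT-labelled libraries (SD, n = 3 and n = 5). The difference of −1.89 had p = 0.0357 in an exact two-sided permutation test over the 56 splits, of which the smallest p possible is 0.0179. The 6 genes were chosen with earlier results of these data known, so the permutation p is no independent support. The difference also rests on few libraries. Without KO-labelled replicate 3 the difference was −1.02 (exact permutation p = 0.0952), without KO-labelled replicate 1 it was −2.11 (p = 0.0952), and without WT-labelled replicate 1, 3, 4 or 5 it was −1.95, −1.85, −1.83 or −1.77 (exact permutation p = 0.0571 each).

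Ccr7 (ENSMUSG00000037944, chromosome 11, 99144196 to 99155077, minus strand), the receptor for entry and for the T cell zone, had the widest spread of the 6 over the 8 libraries. It had 12.9, 48.6 and 55.8 normalised CPM in KO-labelled replicates 1 to 3, against 156, 93.4, 6.39, 1180 and 268 in WT-labelled replicates 1 to 5. WT-labelled replicate 3 was the lowest of all 8 libraries and WT-labelled replicate 4 the highest, so that the WT-labelled range, 185-fold, enclosed the KO-labelled one. The log2 change was −3.12 (SE 1.42, interval −6.28 to 0.04, edgeR adjusted p = 0.348), and DESeq2 gave −3.84 with an adjusted p of 0.0238. Without WT-labelled replicate 4 it was −1.74, without WT-labelled replicates 4 and 5 it was −1.06, and with total counts alone −1.80. Relative to the median of all genes it was −2.71 with TMM scaling and −2.01 with total counts. Per 1000 Cd3 counts the difference of mean log2 values was −0.16. WT-labelled replicate 4 was also the library with the highest T cell, CD8 T cell, B cell, NK cell and myeloid marker sums. Those sums rest on part of their markers, and the part of any such cells in its Ccr7 level was not tested.

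Gpr183 (ENSMUSG00000051212, chromosome 14, 121952551 to 121965195, minus strand), the oxysterol receptor, lies within Ubac2, which is on the plus strand, and no exon of another gene falls in its span. Its normalised CPM was 22.1, 16.7 and 28.8 in KO-labelled replicates 1 to 3, against 236, 148, 123, 38.1 and 86.8 in WT-labelled replicates 1 to 5. The groups did not overlap, and WT-labelled replicate 4 came closest to the KO-labelled libraries. Gpr183 differed by −2.49 on the log2 scale (SE 0.85, interval −4.38 to −0.59, edgeR adjusted p = 0.325, DESeq2 9.1e-05). It was −2.05 with total counts alone, where WT-labelled replicate 4, at 15.1 CPM of the total, fell below all 3 KO-labelled libraries (24.5 to 37.3). Without WT-labelled replicates 4 and 5 it was −2.88. Relative to the median of all genes it was −2.07 with TMM scaling and −2.26 with total counts. Per 1000 Cd3 counts the difference of mean log2 values was −0.52, and the groups overlapped, with 20.2 to 43.2 in KO-labelled libraries and 3.32 in WT-labelled replicate 4. Since the kit does not mark strand, unspliced reads of Ubac2 cannot be told apart from those of Gpr183. Ubac2 as a whole gene had 635 to 1671 counts in KO-labelled and 488 to 1872 in WT-labelled libraries, and its unspliced reads were not counted.

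**Figure D2:**
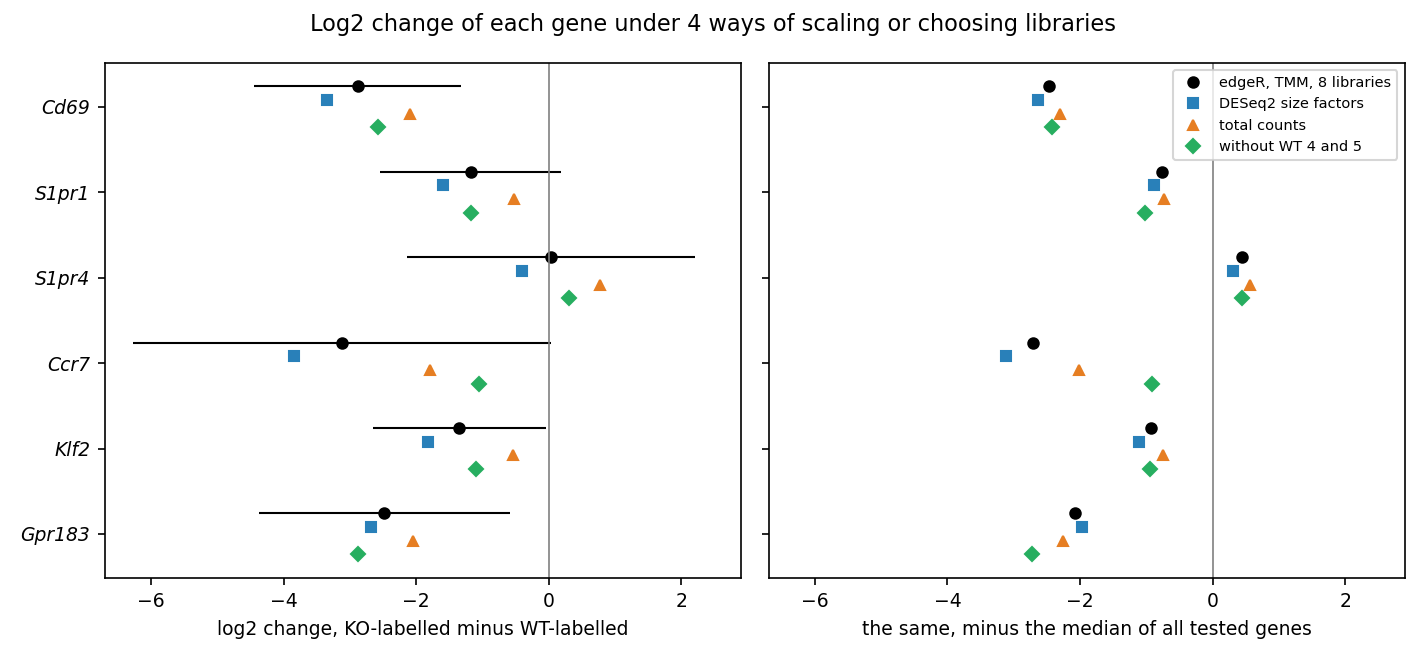
Log2 change (KO-labelled minus WT-labelled) of each gene, left as fitted with 95% intervals for edgeR with TMM scaling and right after subtracting the median of all genes tested in the same setting. Cd69 and Gpr183 stay below −2 in every setting drawn on the left, Ccr7 moves from −3.12 to −1.06 without WT-labelled replicates 4 and 5, and S1pr4 lies near 0.

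Levels were compared between genes per length, as TMM-normalised CPM per kilobase. Cd69 was the highest of the 6 in 1 of 3 KO-labelled and 5 of 5 WT-labelled libraries. In the other KO-labelled libraries Klf2 (replicate 2) or S1pr1 (replicate 3) was highest. The median level of Cd69 per kilobase was 68.8 in KO-labelled and 523 in WT-labelled libraries. That of Klf2 was 73.9 in KO-labelled and 162 in WT-labelled libraries, and that of S1pr1 was 51.1 in KO-labelled and 127 in WT-labelled libraries. Klf2 exceeded S1pr1 in 7 of 8 libraries, and S1pr1 exceeded Gpr183 in 8 of 8. Ccr7 had no fixed place, above Gpr183 in 4 of 8 libraries and above S1pr1 in 3 of 8. S1pr4 was the lowest of the 6 in all 8 libraries, with a median of 6.53 in KO-labelled and 6.47 in WT-labelled libraries.

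**Figure D3:**
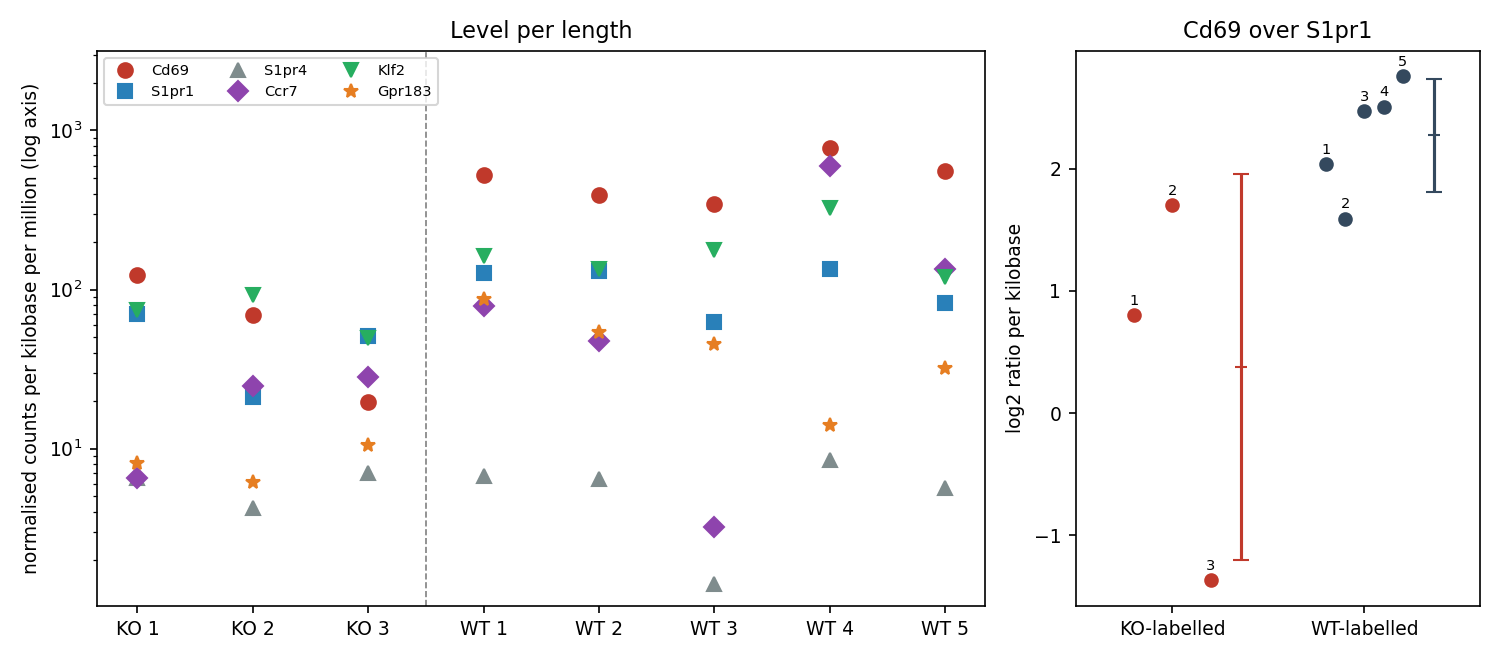
Left, level of each of the 6 genes as TMM-normalised CPM per kilobase (log axis) in KO-labelled (KO 1 to 3) and WT-labelled (WT 1 to 5) libraries; right, log2 ratio of Cd69 to S1pr1 per kilobase, with replicate numbers and mean ± SD beside the points. Cd69 tops every WT-labelled library and S1pr4 is lowest throughout, and the ratio averages 0.38 in KO-labelled and 2.27 in WT-labelled libraries.

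The other genes of these routes were followed in a list of 63, of which 53 passed the count filter. By edgeR 0 passed over all genes. At an unadjusted p under 0.05, 9 of the 53 were lower and 1 higher, against 6.43% and 7.96% of all genes tested. DESeq2 called 16 lower and 1 higher, against 10.0% and 6.4%. The 1 higher gene was Sphk2 by either tool, which had no counts in the WT-labelled libraries and passed the filter through the KO-labelled ones alone. Negative log2 changes were held by 81.1% of the 53 and by 66.5% of protein-coding genes tested, and their median was −1.39. Without WT-labelled replicates 4 and 5, that median was −0.80 over 52 tested genes, of which 8 were lower and 2 higher at an unadjusted p under 0.05, against 6.36% and 8.75% of all genes.

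Genes of adhesion and entry had negative log2 changes in 9 of 9 cases, with a median of −1.74 (−1.08 without WT-labelled replicates 4 and 5). Itga4, the alpha 4 integrin, had 271 ± 271 normalised CPM in KO-labelled and 493 ± 184 in WT-labelled libraries (SD, n = 3 and n = 5, log2 change −0.87), and its groups overlapped. Itgal, the alpha chain of the LFA-1 integrin, was singled out after its values were seen: at 134 ± 32.2 in KO-labelled and 514 ± 159 in WT-labelled libraries its groups did not overlap, with a log2 change of −1.94 (edgeR adjusted p = 0.325, DESeq2 1.5e-05). Its groups overlapped with total counts alone.

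The S1P receptors and enzymes of the list leave out S1pr1 (log2 change −1.18) and S1pr4 (0.04), described above. Of their 7 tested members, 6 had positive log2 changes, with a median of 1.01 (0.64 without WT-labelled replicates 4 and 5). Sgpp1, a phosphatase that degrades S1P, had 330 ± 84.9 in KO-labelled and 217 ± 130 in WT-labelled libraries (log2 change 0.61), and the S1P lyase gene Sgpl1 had 16.9 ± 14.2 in KO-labelled and 48.8 ± 53.9 in WT-labelled libraries (log2 change −1.53). Sphk2, a kinase that makes S1P, was singled out after its values were seen. It had 104, 127 and 14 counts in KO-labelled replicates 1 to 3 and none in the 5 WT-labelled ones, where a level of up to 3 counts per library is possible. Sphk2 thus passed the count filter through the KO-labelled libraries alone. It is counted among the 6 and in the median, and a median without it was not computed. Its mean of 10.2 normalised CPM in KO-labelled libraries was at least 31.8-fold higher than the mean WT-labelled level at that floor of 3 counts per library. Without KO-labelled replicate 2 the bound was 18.1-fold, and the lowest KO-labelled library was 5.95-fold above the highest WT-labelled floor. For Sphk2 edgeR gave an adjusted p of 0.325 and DESeq2 one of 1.35e-06. Since the gene was picked by its values, neither is independent support. Every KO-labelled library lay above every WT-labelled one for 13.2% of all genes tested. S1pr2, another S1P receptor, had 1.87 ± 0.598 in KO-labelled and 1.41 ± 1.13 in WT-labelled libraries, and S1pr3 and S1pr5 had at most 2 counts in any library.

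Among regulators of Klf2, 10 of 11 tested genes had negative log2 changes (median −1.40, or −1.0 without WT-labelled replicates 4 and 5). The forkhead gene Foxo1, which activates Klf2, had 172 ± 120 in KO-labelled and 454 ± 324 in WT-labelled libraries (log2 change −1.40), and its relative Foxp1 had 282 ± 92.0 in KO-labelled and 597 ± 162 in WT-labelled libraries (log2 change −1.08, edgeR adjusted p = 0.354, DESeq2 0.0272). Map2k5, which encodes MEK5, was singled out after its values were seen. It had 44, 4 and 2 counts in KO-labelled replicates 1 to 3, against 211, 355, 125, 474 and 1353 in WT-labelled replicates 1 to 5, and its groups stayed separate with total counts alone. The difference was −5.26 on the log2 scale (SE 1.61, edgeR adjusted p = 0.325, DESeq2 0.000156), and −3.61 without WT-labelled replicates 4 and 5. Mapk7, which encodes ERK5, was at 0 counts in KO-labelled replicates 1 and 2 and in WT-labelled replicates 1 and 3. Mef2a, the MEF2 gene with the most counts, was the 1 member with a positive log2 change, at 258 ± 35.2 in KO-labelled and 148 ± 67.8 in WT-labelled libraries (0.80).

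Genes of retention in tissue were tested in 6 of 7 cases, 4 with negative log2 changes and a median of −1.88, which was 0.38 without WT-labelled replicates 4 and 5. Cxcr6, a chemokine receptor of tissue-resident lymphocytes, had 0.175, 26.6 and 0.179 normalised CPM in KO-labelled replicates 1 to 3, against 12.9, 0.173, 2.69, 728 and 214 in WT-labelled replicates 1 to 5. Itga1, the collagen-binding alpha 1 integrin, had 525 in WT-labelled replicate 4 and at most 26.2 in the 7 others. Both were highest in WT-labelled replicate 4, which had the highest sums of T cell, CD8 T cell, B cell, NK cell and myeloid markers. Their log2 changes, −4.41 for Cxcr6 and −3.01 for Itga1, turned to 0.90 and 2.82 without WT-labelled replicates 4 and 5. Of the 4 enzymes that make or break down the ligand of GPR183, 0 passed the filter. Hsd3b7 had 0, 61 and 1 counts in KO-labelled replicates 1 to 3, against 0, 2, 500, 0 and 0 in WT-labelled replicates 1 to 5. Ch25h had at most 1 count in any library.

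Signalling genes of migration had negative log2 changes in 19 of 20 cases (median −1.47, or −0.72 without WT-labelled replicates 4 and 5). Rap1b, a small GTPase that activates integrins, had 230 ± 209 in KO-labelled and 1200 ± 888 in WT-labelled libraries (log2 change −2.38, edgeR adjusted p = 0.325, DESeq2 0.0134), and without WT-labelled replicates 4 and 5 the change was −1.31. Rac2, the GTPase of the actin cytoskeleton in blood cells, had 279 ± 91.6 in KO-labelled and 1040 ± 1300 in WT-labelled libraries (−1.90, edgeR adjusted p = 0.356, DESeq2 0.0481), with WT-labelled replicate 4 highest at 3340. Without that library the WT-labelled mean of Rac2 was 466 ± 164 and its log2 change −0.74, and −0.49 without WT-labelled replicates 4 and 5.

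**Figure D4:**
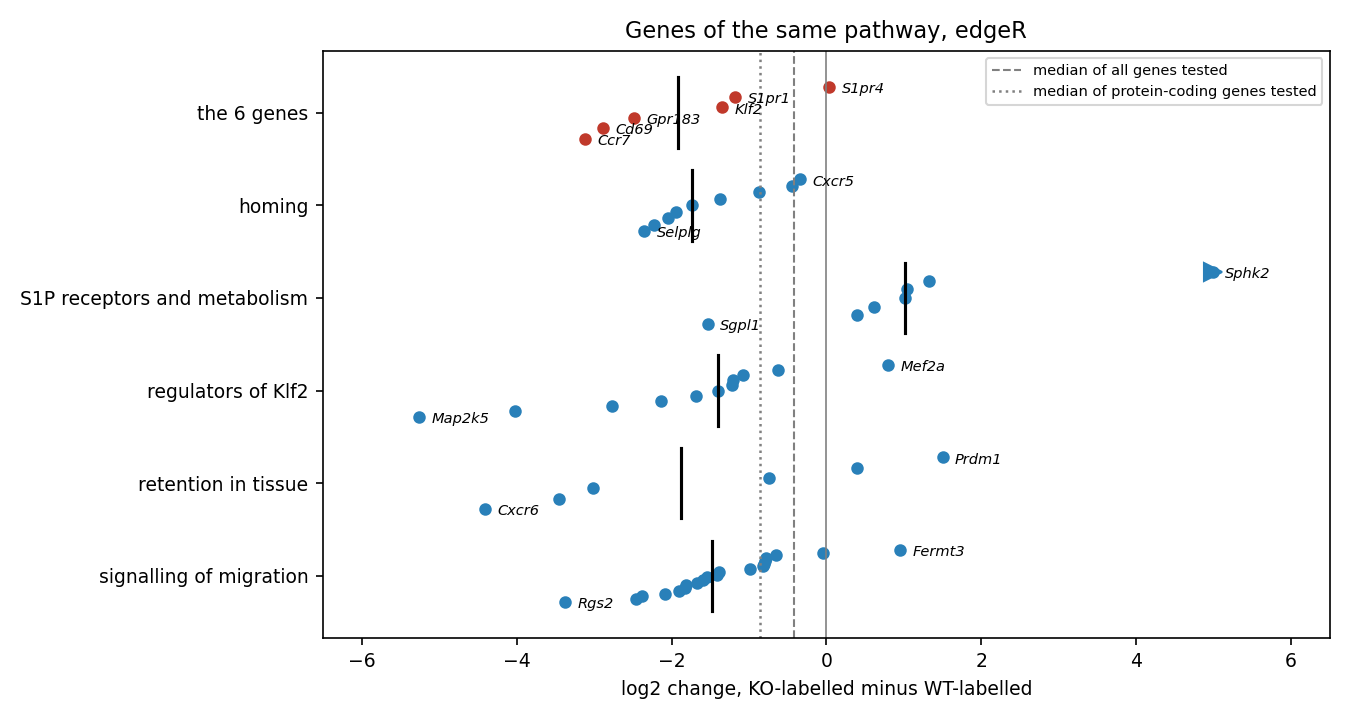
Log2 changes (KO-labelled minus WT-labelled, edgeR) of the 6 genes and of the tested members of 5 groups of the pathway list; black bars are group medians and the arrowhead for Sphk2 marks a lower bound. Most groups lie left of the median of all genes tested (−0.42). The S1P group, which leaves out S1pr1 and S1pr4, has its median at 1.01 with Sphk2 counted. The median of the retention group turns to 0.38 without WT-labelled replicates 4 and 5.

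The genes whose pattern over the 8 libraries was most like each of the 6 were sought among 2969 protein-coding genes whose log2 CPM averaged 5 or more, by the root mean square difference after each gene's own mean was subtracted. Baz1a was among the closest to Cd69 (0.347 on the log2 scale, against 1.71 for the spread of Cd69 itself). Cep295 and Gtf3c2 were closest to S1pr1 (0.265 and 0.29, against 0.842), and Brd9 and Rbis to Klf2 (0.264 and 0.27, against 0.778). For Gpr183 they were Bcor and Smchd1 (0.477 and 0.638, against 1.32), for S1pr4 H2-Ob and Gpr174 (0.431 and 0.479, against 0.742), and for Ccr7 Ldha and Smim14 (0.752 and 0.798, against 2.22).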

How the data were processed

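Libraries were made with the SMART-Seq V4 kit, per the labels' protocols; it keeps no strand. The table the authors deposited holds an estimated count (RSEM-style expected count, not always whole) per gene and library. The tools fastp, HISAT2, StringTie, RSEM and DESeq2 and the build mm10 are named, without versions or roles, per the submitters' processing notes. The authors also deposited a signal column per group: that of KO equals the mean of the 3 libraries, that of WT does not equal the mean of the 5 analysed here, and neither was used. Lengths come from the deposited table, positions from GENCODE M21.

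Counts were rounded and tested in R 4.3.3 with edgeR 4.0.16: filterByExpr (minimum count 10), TMM factors (1.32 to 1.49 in KO-labelled and 0.4 to 1.15 in WT-labelled libraries, multiplying library size), quasi-likelihood test without covariates, two-sided, Benjamini-Hochberg adjustment over all 14755 genes, call under 0.05. Standard errors were derived from the fold change and the F statistic. DESeq2 1.42.0 and limma 3.58.1 were alternatives, beside other scalings, filters and left-out libraries. Procedures were tested on simulated data. For edgeR, recovery of changed genes was required only at a dispersion (spread between libraries) far below the 1.67 estimated here. The share of changed genes recovered at 1.67 is not reported here. Intervals and floors (3 counts) cover counting error only where they come from counts, since reads carry no molecular identifiers. No libraries of a group agreed within sampling noise (chi-square per degree of freedom at least 58.3).

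The 6 genes, the pathway list and the markers were chosen with earlier results of these data known. Named from each of the 6 subgroups of the list were members past the threshold or, as none passed, the 2 with the highest mean. Itgal, Sphk2, S1pr2, S1pr3, S1pr5, Map2k5, Mapk7 and Mef2a were named after their values were seen. Some genes that these rules select are not reported here.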

Additional observations from a re-analysis of the deposited data

Results flagged for a closer look

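In the 5 WT-labelled libraries, 19 quantities were examined for 1 library that stands far from the rest. Chance flags about 1 in 20 such groups if values follow a normal distribution. The normalised CPM values flagged below were not log-transformed and need not follow one. Ccr7 in WT-labelled replicate 4 stood apart at 1180 normalised CPM, Klf2 in the same library at 603, Rac2 at 3340 and Itga1 at 525. Hsd3b7 stood apart in WT-labelled replicate 3 at 42.0. Of these 5 values, 4 are from WT-labelled replicate 4, whose TMM factor of 0.4 raises its normalised CPM. In CPM of the library total Klf2 had 239 there, within the WT-labelled range of 149 to 345, while Ccr7 had 468, the highest of all 8.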

How the results depend on the processing

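The log2 changes of Cd69, S1pr1, Ccr7, Klf2 and Gpr183 were negative under the 19 alternatives fitted across all genes, also relative to the median of all genes, with ranges of −3.61 to −2.09, −1.65 to −0.53, −3.84 to −0.61, −1.82 to −0.54 and −2.88 to −2.04. On a scale added after seeing the data, per 1000 counts of Cd3d, Cd3e and Cd3g, Klf2 (0.46) and S1pr1 (0.48) turned positive, and Cd69, Ccr7 and Gpr183 were −1.41, −0.16 and −0.52. Left out after seeing the data, WT-labelled replicate 4 turned Itga1 to 2.15, and WT-labelled replicates 4 and 5 turned Itga1 to 2.82, Cxcr6 to 0.90 and the median of the retention genes to 0.38. None of the 5 passed an adjusted p of 0.05 except in DESeq2, which gave −3.35, −1.59, −3.84, −1.82 and −2.69; the cause of the gap between the tools was not tested. S1pr4 turned negative with DESeq2's size factors (−0.41), DESeq2 (−0.40), no filter (−0.22) and without the libraries named FY (−0.04), and leaving out 1 library gave −0.19 to 0.22. The edgeR count of 0 genes (2124 at an unadjusted p under 0.05) became 1 with total counts, without a filter and with a mean of at least 5 CPM, 22 in limma-voom and 2421 in DESeq2. In the pathway list it became 1 in limma-voom and 17 in DESeq2. The difference in the log2 ratio of Cd69 to S1pr1 was −2.06 without the libraries named FY and −1.65 without WT-labelled replicates 4 and 5 (exact permutation p = 0.1 and 0.2, where 3 against 3 cannot go below 0.1), and −2.55 to −1.02 with 1 library left out. Libraries with the same replicate number had correlated deviations of 0.00946 to 0.0587, and KO-labelled replicate 2 did not correlate best with its own number, so the numbers were not taken to pair libraries; with the replicate block on replicates 1 to 3, Cd69 was −2.87, Gpr183 −2.86, Klf2 −1.14, S1pr1 −1.22, Ccr7 −0.61 and S1pr4 0.52, and 0 genes were called.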
